A study of Mus musculus with 2 samples.

Results

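Heat shock chaperones were followed in natural killer (NK) cells that had infiltrated mouse tumors. They comprised 10 genes chosen by name out of the 27998 genes listed in both count tables. Hspa1a, Hspa1b, Hspb1, Hsph1, Dnajb1 and Hsp90aa1 were grouped as the 6 inducible members, and Hspa8, Dnaja1, Hspd1 and Hspe1 as the 4 constitutive members. The groups follow textbook usage, and several constitutive members also respond to heat. All 10 had at least 200 unique molecular identifiers (UMIs, each standing for 1 captured transcript) over both libraries, so a filter on low values removed none of them.

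The KO library came from mice with Hif1a deleted in NK cells, labelled NK-Hif1a-/-, and the WT library from wild-type mice. In both, tumors were grown for 2 weeks after subcutaneous injection of RMA-S cells, a lymphoma line that displays little MHC class I and is used as an NK cell target. CD3ε-NK1.1+ cells were then sorted and made into 10x Chromium 3′ libraries. Hif1a encodes the oxygen-sensitive subunit of hypoxia-inducible factor. The labels give no age, strain background, Cre driver, deleted part of Hif1a, number of mice or tumors in a library, or method of tumor dissociation. With 1 library per genotype there was no replicate check, no test was made, and each difference describes these libraries.

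Barcodes were kept as cells when they had 500 or more detected genes and no more than 10% mitochondrial UMIs, which left 3067 of 3110 barcodes of the KO library and 3555 of 3574 of the WT library. These cells held 13222535 KO and 19462712 WT UMIs, with a median of 3793 UMIs per KO cell and 4440 per WT cell. Both libraries contained 19 of the same barcodes, all among the kept cells. Hif1a itself had 60.5 CPM in KO cells against 58.2 CPM in WT cells, where CPM is UMIs per 1000000 UMIs of the library's kept cells, but a 3′ tag can lie outside the deleted part, so this checks nothing. Clustering without the members gave 8 clusters named NK-like from NK markers, with 2886 KO and 3308 WT cells. A T-like cluster held 70 KO and 110 WT cells although the sort excluded CD3ε, and an unnamed cluster led by Cd74, Tmem176b and H2-Aa held 111 and 137.

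Chaperones of the heat shock families keep proteins folded, and cells make more of several of them when proteins misfold. The transcription factor HSF1 is held inactive in unstressed cells, and after heat or other proteotoxic stress it assembles into trimers that bind heat shock elements, arrays of GAA units in alternating orientation. HSP70 proteins bind exposed hydrophobic stretches of clients, J proteins bring clients to HSP70 and start its ATP cycle, nucleotide exchange factors reset it, and HSP90 receives clients such as kinases and steroid receptors. Fos and Jun encode subunits of the transcription factor AP-1 and are immediate early genes, transcribed within minutes of many stimuli.

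Promoters are printed for Hspa1a, Hspa1b, Hspb1 and Dnaja1, the members that differed by 1.5-fold or more between the libraries, for Hspe1, which holds a longer element, and for Dnajb1, an inducible member without a match. RefSeq promoter windows on GRCm38.p6 run from 250 bases before to 50 bases after a start site and were found for 8 of the 10 members, in 13 windows. Hspa8 and Hsp90aa1 had none in the table. A pair of GAA units was searched on both strands as GAANNTTC or TTCNNGAA, and 3 units as GAANNTTCNNGAA or TTCNNGAANNTTC, which contain the shorter motifs. A pair occurred in 15.1% of 32851 windows of all genes and 3 units in 0.603%. A pair was in 8 of the 13 member windows. Per gene, 7 of the 8 members had a pair in at least 1 of their windows, and 3 of them, Hsph1, Hspd1 and Hspe1, had 3 units. The shares of all genes are per window, so these counts per gene are not like for like. The matches are also not all separate: the Hsph1 windows overlap and hold the same elements, and Hspd1 and Hspe1 share a stretch. Capitals mark the elements. The windows are chr17:34972107-34972406 (minus strand) for Hspa1a, chr17:34959189-34959488 (minus) for Hspa1b, chr5:135887669-135887968 (plus) for Hspb1, chr4:40722218-40722517 (plus) for Dnaja1, chr1:55087898-55088197 (plus) for Hspe1 and chr8:83607925-83608224 (plus) for Dnajb1.
Hspa1a: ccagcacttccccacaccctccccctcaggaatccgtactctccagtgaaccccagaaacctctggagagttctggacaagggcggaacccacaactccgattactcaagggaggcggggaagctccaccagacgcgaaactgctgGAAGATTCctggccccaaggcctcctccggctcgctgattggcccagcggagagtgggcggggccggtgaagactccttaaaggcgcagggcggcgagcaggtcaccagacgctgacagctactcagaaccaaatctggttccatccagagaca
Hspa1b: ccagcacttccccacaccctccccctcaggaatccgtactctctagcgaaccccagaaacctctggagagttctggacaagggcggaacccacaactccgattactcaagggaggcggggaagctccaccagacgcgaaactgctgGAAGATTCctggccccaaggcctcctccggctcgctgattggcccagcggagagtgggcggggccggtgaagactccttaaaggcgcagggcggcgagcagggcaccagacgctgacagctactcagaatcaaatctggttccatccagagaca
Hspb1: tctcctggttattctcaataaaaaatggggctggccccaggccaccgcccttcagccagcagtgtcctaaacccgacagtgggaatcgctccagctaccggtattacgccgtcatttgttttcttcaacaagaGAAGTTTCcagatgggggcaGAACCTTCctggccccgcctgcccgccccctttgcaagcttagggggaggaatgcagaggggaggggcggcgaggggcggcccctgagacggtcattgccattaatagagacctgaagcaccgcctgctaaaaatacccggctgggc
Dnaja1: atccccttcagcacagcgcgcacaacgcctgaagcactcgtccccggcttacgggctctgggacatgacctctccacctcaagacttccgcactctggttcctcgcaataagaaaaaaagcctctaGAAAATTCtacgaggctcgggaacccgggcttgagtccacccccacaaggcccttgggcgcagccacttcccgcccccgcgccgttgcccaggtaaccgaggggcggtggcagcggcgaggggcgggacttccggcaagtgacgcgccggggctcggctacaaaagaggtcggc
Hspe1: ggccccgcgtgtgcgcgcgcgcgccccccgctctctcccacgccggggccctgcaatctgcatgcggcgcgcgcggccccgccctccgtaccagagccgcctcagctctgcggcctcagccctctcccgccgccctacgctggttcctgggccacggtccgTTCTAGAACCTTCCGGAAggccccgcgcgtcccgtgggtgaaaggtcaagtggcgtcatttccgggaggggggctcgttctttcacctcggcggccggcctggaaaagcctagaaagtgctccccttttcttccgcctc
Dnajb1: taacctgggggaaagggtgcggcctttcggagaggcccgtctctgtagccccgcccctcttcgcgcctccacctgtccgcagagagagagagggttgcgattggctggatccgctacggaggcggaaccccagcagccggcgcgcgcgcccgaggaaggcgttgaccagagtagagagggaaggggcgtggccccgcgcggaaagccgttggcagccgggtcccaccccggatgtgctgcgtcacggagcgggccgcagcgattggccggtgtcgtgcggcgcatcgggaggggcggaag
The Hspa1a and Hspa1b windows differed at 4 of 300 bases and carried the same element, which began at position -104 relative to the start site. Hspb1 had elements at -117 and -97. In Dnaja1, 1 of 3 windows held a single pair, at -124. The run of capitals in the Hspe1 window is also in the Hspd1 window on the other strand, because these genes start next to each other and are transcribed in opposite directions. Dnajb1 had neither form of the motif in its 2 windows. A match is a run of letters and does not show binding, and its absence says only that these letters are not in the window.

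The inducible HSP70 genes were lower in the KO library. Hspa1a, which encodes a stress-induced cytosolic HSP70 (chromosome 17, 34969190 to 34972156, minus strand, GENCODE M21 on GRCm38), had 4955 UMIs or 375 CPM in the KO library (exact 95% Poisson interval 364 to 385), against 18718 UMIs or 962 CPM in the WT library (948 to 976). After 1 CPM was added to each value, the log2 ratio (KO over WT) was -1.36, with a 95% counting interval of -1.41 to -1.31. Its neighbour Hspa1b (34956436 to 34959238, same strand), which encodes a nearly identical protein, had 59.9 CPM in KO cells against 127 CPM in WT cells, for a log2 ratio of -1.08 (-1.21 to -0.97). The 2 libraries thus did not overlap within counting error for either gene, in the same direction. All intervals given allow for counting error alone, with UMIs taken as independent, and not for variation among cells, animals, tumors or library preparations.

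The cell-level distribution of Hspa1a also differed. Each cell was thinned to 2500 UMIs so that depth was equal, which kept 2649 KO and 3463 WT cells and left out 418 KO and 92 WT cells as too shallow. The loss was uneven: cluster 0, a group high in Hspa1a, went from 579 to 448 KO cells and from 736 to 706 WT cells. The thinned shares thus leave out part of a KO group rich in Hspa1a. After thinning, 22.3% of KO cells had an Hspa1a UMI (Clopper-Pearson 95% interval 20.8% to 24.0%), against 49.1% of WT cells (47.4% to 50.8%). Without thinning the shares were 29.6% of KO and 63.3% of WT cells. The gene was held unevenly in both libraries: the 1% of cells with the most Hspa1a UMIs, 31 KO and 36 WT cells, had 24.3% of KO and 12.2% of WT Hspa1a UMIs. Hspa1b was detected in 10.2% of thinned KO and 21.3% of thinned WT cells. No cell type known to lack these genes was among the clusters, so the part of these shares that free RNA in the droplets gives was not measured.

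Because the Hspa1a and Hspa1b transcripts share most of their coding sequence, their counts could be split by the counting. In the GENCODE transcripts, 58.8% of the 50-base runs of Hspa1a occur in Hspa1b over the whole transcript, but 0% within the last 500 bases, where 3′ tags lie. There were 6.26 Hspa1a UMIs per Hspa1b UMI in the KO library (5.80 to 6.75) and 7.55 in the WT library (7.24 to 7.87). Summed over both copies, which does not depend on the split, the level was 435 CPM in KO cells against 1089 CPM in WT cells, for a log2 ratio of -1.32 (-1.37 to -1.28).

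Hspb1, a small heat shock protein that holds unfolding proteins without using ATP (chromosome 5, 135887919 to 135889563, plus strand), was sparse. It had 77 UMIs in 42 KO cells and 512 UMIs in 170 WT cells, or 5.82 CPM (4.60 to 7.28) in the KO and 26.3 CPM (24.1 to 28.7) in the WT library. The log2 ratio was -2.00 and its counting interval, computed without the added CPM, -2.54 to -1.83. This was the largest difference among the 10 members and also the one carried by the fewest cells: the 31 KO and 36 WT cells with the most Hspb1 UMIs held 85.7% of its KO UMIs and 66.2% of its WT UMIs. The counting interval takes UMIs as independent and is too narrow for such a gene. This holds for Hspa1a as well. The variance of UMIs over thinned cells divided by their mean was 3.03 in KO and 4.12 in WT cells for Hspb1. For Hspa1a it was 11.2 and 12.1. After thinning, 0.906% of KO (0.581% to 1.35%) and 3.18% of WT cells (2.62% to 3.82%) had an Hspb1 UMI.

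The other 3 inducible members were lower in the KO library by less than 1.5-fold. Dnajb1 is a J protein that works with the inducible HSP70 (chromosome 8, 83608193 to 83612653), and it had 313 CPM in KO cells against 366 CPM in WT cells, for a log2 ratio of -0.23 (-0.28 to -0.17). Hsp90aa1, the inducible cytosolic HSP90 (chromosome 12, 110690605 to 110702728), had 713 CPM in KO cells against 798 CPM in WT cells, for a log2 ratio of -0.16 (-0.20 to -0.13). Hsph1, an HSP110 that acts as a nucleotide exchange factor for HSP70 (chromosome 5, 149614287 to 149636376), had 31.4 CPM in KO cells against 40.1 CPM in WT cells, for a log2 ratio of -0.34 (-0.53 to -0.18). In thinned cells the shares with a UMI nearly coincided for Hsp90aa1, at 75.4% of KO and 75.3% of WT cells, and the intervals of the libraries overlapped for Dnajb1 (45.8% of KO and 46.8% of WT cells) and Hsph1 (7.47% and 8.49%). The inducible sum over the 6 genes was 1497 CPM in KO cells against 2320 CPM in WT cells, for a log2 ratio of -0.63 (-0.66 to -0.61). Without Hsp90aa1 it was 785 CPM in KO cells against 1522 CPM in WT cells, or -0.95 (-0.99 to -0.92). Hspa1a alone, at 375 CPM in KO against 962 CPM in WT cells, made the largest part of the difference in the inducible sum. A sum without Hspa1a was not taken.

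The constitutive members did not share a direction. Hspa8, the cytosolic HSC70 that most cells make without stress (chromosome 9, 40800984 to 40810087), had 2202 CPM in KO cells against 2216 CPM in WT cells, for a log2 ratio of -0.0092 (-0.031 to 0.012). Dnaja1, a J protein that works with HSC70 (chromosome 4, 40722150 to 40737149), was the single member that was higher in the KO library, with 550 CPM in KO and 365 CPM in WT cells. Its log2 ratio was 0.59 (0.54 to 0.64), just past 1.5-fold, and 69.3% of thinned KO cells against 57.7% of thinned WT cells had a Dnaja1 UMI. Its direction was thus opposite to that of Hspa1a and Hspa1b.

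The mitochondrial pair was modestly lower in the KO library. Hspd1, the mitochondrial HSP60 chaperonin (chromosome 1, 55077835 to 55088243, minus strand), had 121 CPM in KO cells against 155 CPM in WT cells, for a log2 ratio of -0.36 (-0.45 to -0.27). Hspe1, its HSP10 lid (55088132 to 55091307, plus strand), had 279 CPM in KO cells against 375 CPM in WT cells, for a log2 ratio of -0.43 (-0.49 to -0.37). The annotated genes overlap at their 5′ starts, far from the 3′ ends that the tags mark. The constitutive sum was 3152 CPM in KO cells against 3112 CPM in WT cells, for a log2 ratio of 0.018 (0.00015 to 0.036), in which Hspa8 and Dnaja1 hold most of the UMIs.

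In all, 3 of 10 members were lower in the KO library by 1.5-fold or more, as were 2.5% of the 8155 genes with at least 200 UMIs. They were Hspa1a, Hspa1b and Hspb1. Dnaja1 was the 1 of 10 members higher by as much, as were 5.46% of those genes. The median log2 ratio was -0.71 for the 6 inducible members, -0.18 for the 4 constitutive members and 0.044 for the 8155 genes. The 10 members were chosen with results of these libraries known, so these counts describe them and are not independent evidence of a direction. Dnaja1 lay near the threshold: its log2 ratio was between 0.28 and 0.70 over 12 other settings and passed 1.5-fold in 2 of them.

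**Figure D1:**
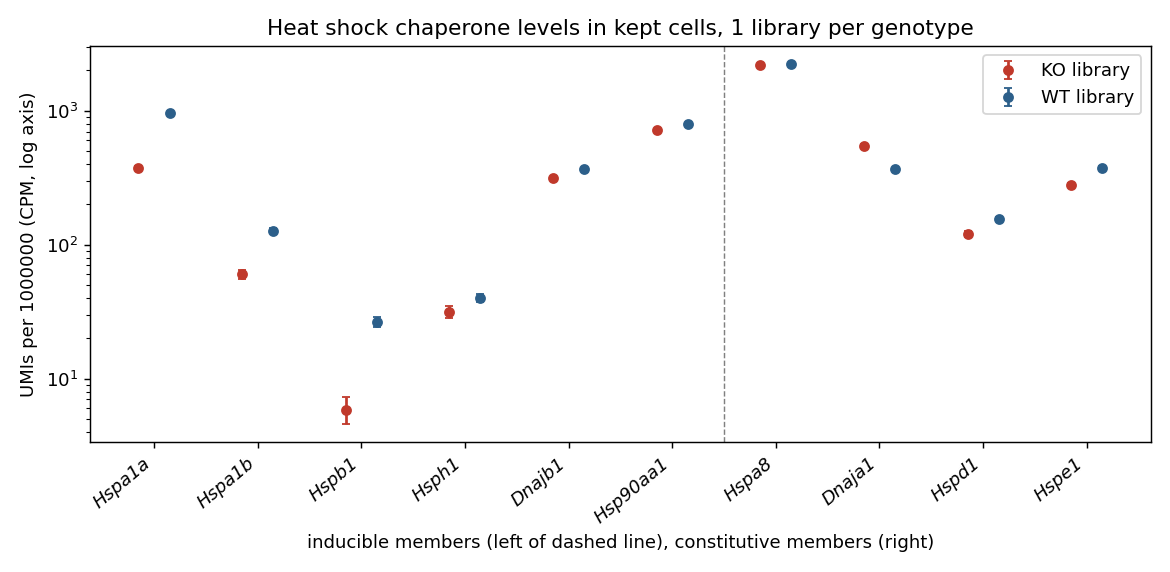
Level of each member in CPM (log axis) over the kept cells of the KO library (red, left of each pair) and the WT library (blue), with exact 95% Poisson intervals that are mostly narrower than the points. Hspa1a lies at 375 CPM in KO cells against 962 CPM in WT cells, Hspb1 at 5.82 and 26.3 CPM, while Hspa8 lies at 2202 and 2216 CPM and Dnaja1 is higher in the KO library, at 550 and 365 CPM.

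Fos and Jun were also lower in the KO library. Fos (chromosome 12, 85473890 to 85477273) had 381 CPM in KO cells against 698 CPM in WT cells, for a log2 ratio of -0.87 (-0.92 to -0.82). Jun (chromosome 4, 95049034 to 95052222) had 830 CPM in KO cells against 1082 CPM in WT cells, for a log2 ratio of -0.38 (-0.42 to -0.35). Cells with many UMIs of the pair made up a smaller share of the thinned KO cells: 7.06% of thinned KO cells, 187 in number, and 18.2% of thinned WT cells, 630 in number, had 10 or more Fos plus Jun UMIs, while 22.8% of KO and 17.8% of WT cells had 0. Thinning had left out more KO than WT cells, those of cluster 0 among them, so these shares do not describe all kept cells.

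Within each library, cells with more Fos plus Jun had more Hspa1a. Thinned cells were put into 5 bins of 0, 1 to 2, 3 to 5, 6 to 9 and 10 or more Fos plus Jun UMIs. Mean Hspa1a over these bins was 0.318, 0.565, 0.849, 1.87 and 4.89 UMIs per KO cell, and 0.50, 0.819, 1.97, 4.23 and 7.97 UMIs per WT cell. It was higher in each successive bin, and the top bin exceeded the bottom 15.4-fold in the KO library (13.2 to 18.1) and 15.9-fold in the WT library (14.2 to 17.9). The intervals of these 2 ratios overlapped, while the share of cells in the top bin differed between the libraries.

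The other inducible members followed the bins to different degrees. Top over bottom was 8.04-fold in KO and 11.4-fold in WT cells for Hspa1b, 3.82-fold and 5.81-fold for Dnajb1, and 2.52-fold and 3.12-fold for Hsp90aa1. Hspb1 was 19.4-fold (6.66 to 76.8) in KO and 11.7-fold (6.32 to 24.0) in WT cells, from few UMIs. Hsph1 was nearly level in the KO library at 1.19-fold, with an interval of 0.642 to 2.12 that holds no difference, and reached 2.03-fold (1.41 to 2.95) in the WT library. Among the constitutive members, top over bottom was 1.27-fold in KO and 1.25-fold in WT cells for Hspa8, 1.13-fold in both for Hspd1, and 1.22-fold and 1.28-fold for Hspe1. Dnaja1 was 1.20-fold (1.04 to 1.37) in the KO library but 1.59-fold (1.42 to 1.79) in the WT library, where it was higher in each successive bin. The constitutive sum stood at 1.25-fold in KO and 1.29-fold in WT cells.

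**Figure D2:**
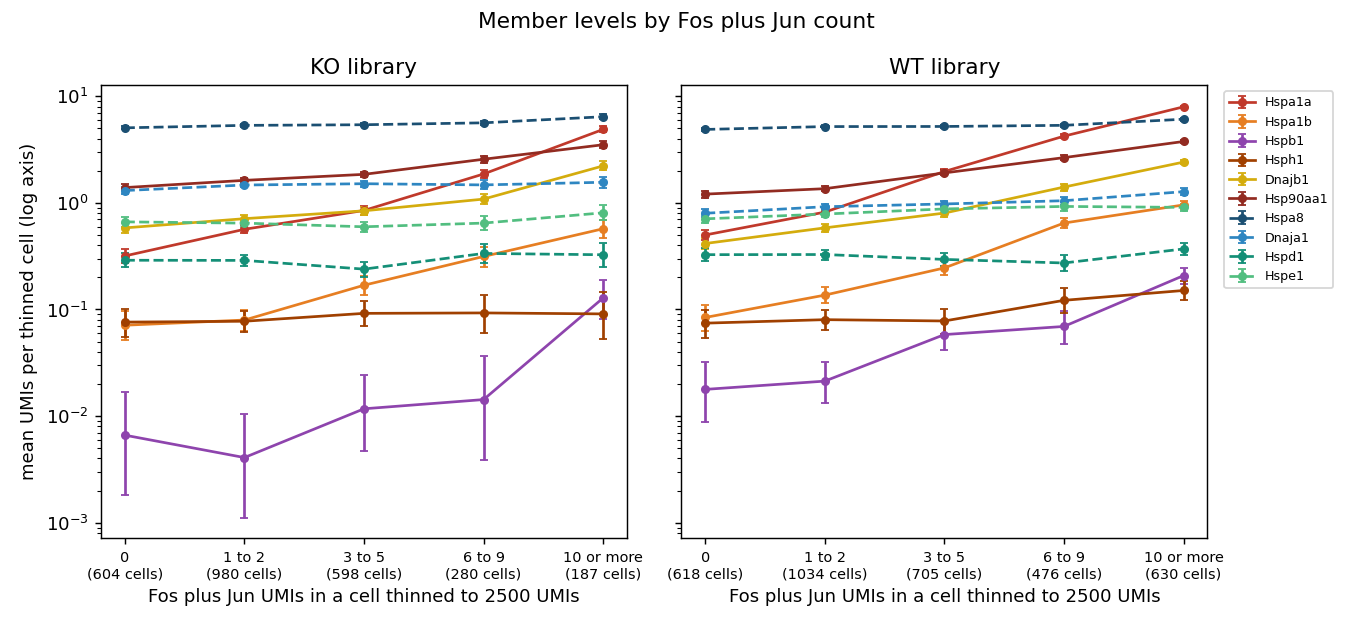
Mean UMIs of each member per cell thinned to 2500 UMIs (log axis) against the cell's Fos plus Jun UMIs in 5 bins, for the KO library (left) and the WT library (right), with exact 95% Poisson intervals; solid lines are inducible and dashed lines constitutive members. Hspa1a climbs from 0.318 to 4.89 UMIs over the KO bins and from 0.50 to 7.97 over the WT bins, whereas Hspa8 stays between 5.06 and 6.43 in the KO and between 4.89 and 6.10 in the WT library.

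Other features of the cells moved with the bins. From the lowest to the highest bin, median depth before thinning went down, at 4391.5 and 3472 UMIs in the KO and 4885.5 and 3854 UMIs in the WT library, and the median mitochondrial share was 1.20% and 1.01% in the KO and 1.28% and 1.13% in the WT library. One cluster, number 0, supplied 15.6% of the lowest and 35.3% of the highest bin in the KO library, and 9.71% and 46.5% in the WT library. The erythroid markers (summed hemoglobin genes and Alas2) had 3.92 and 3.41 UMIs per thinned WT cell in the 2 lowest bins and 0.367, 0.366 and 0.376 in the bins above, and between 0.694 and 0.807 in the KO bins. Proliferation markers of S and G2M phase had 1.55 UMIs in the lowest and 1.13 in the highest KO bin, and 2.30 and 1.43 in those WT bins. Their part in the relation was not tested, beyond the values within clusters given further on.

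Cells in the same bin of Fos plus Jun still differed in Hspa1a between the libraries. A bin is a range, and in the top one mean Fos was 5.69 UMIs in KO and 6.93 in WT cells, and mean Jun 10.1 and 10.2. Over the 5 bins in order, the log2 ratio of KO over WT for Hspa1a was -0.65, -0.54, -1.21, -1.18 and -0.70, and each counting interval lay below 0. The inducible sum differed less in the low bins, at 0.089, 0.031, -0.41, -0.62 and -0.44. Dnaja1 was higher in the KO library in each bin, at 0.71, 0.68, 0.63, 0.49 and 0.29. KO cells were also weighted to the WT shares of the bins, a setting chosen after seeing the data. The log2 ratio of the inducible sum was then -0.35, in place of -0.68 over thinned cells without weights. That of Hspa1a was -0.84 in place of -1.44.

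Correlations with Fos plus Jun were also taken over single cells. They are descriptions over 2649 KO and 3463 WT thinned cells that share a library and a fixed depth. Pearson r was taken on log1p UMIs. Among 8153 genes other than Fos and Jun, Hspa1a had the highest r with Fos plus Jun in both libraries, at 0.30 in KO and 0.52 in WT cells. Hsp90aa1 had 0.24 and 0.41, Hspa1b 0.23 and 0.38, and Dnajb1 0.21 and 0.38, each within the first 10 genes of both libraries. An r of at least 0.1 was reached in the KO library by 4 of 10 members and 0.343% of the 8153 genes, and in the WT library by 6 of 10 members and 0.65% of the genes. In both libraries it was reached by 4 of 6 inducible and 0 of 4 constitutive members, and by 0.307% of the genes. Sparse counts limit r, and the genes were not matched to the members in level, so these shares are not like for like. Hspb1 passed in the WT library alone (0.089 in KO and 0.13 in WT cells), as did the constitutive Dnaja1 (0.053 and 0.13). Hsph1 passed in neither (0.016 and 0.077), nor did the constitutive Hspa8 (0.071 and 0.079). Their WT values nearly coincided, and Hsph1 is the sparser gene, so their order was not read. Spearman rho between the inducible sum and Fos plus Jun was 0.29 in KO and 0.58 in WT cells.

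The tie was present inside cluster 0, the T-like cluster and the unnamed cluster, and in the other NK-like cells pooled. It was not taken inside each of those other NK-like clusters, so the pooled value may also hold differences between them. For the inducible sum with Fos plus Jun, r was 0.53 in KO and 0.65 in WT cells of cluster 0, and 0.28 and 0.52 in the other NK-like cells. In the T-like cluster it was 0.39 over 64 KO cells and 0.68 over 109 WT cells, and in the unnamed cluster 0.37 over 103 KO cells and 0.57 over 136 WT cells. The constitutive sum had r between -0.022 and 0.15 in KO cells of these groups and between 0.033 and 0.22 in WT cells.

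Among the members themselves, Hspa1a with Hspa1b was the pair with the highest r, at 0.41 in KO and 0.44 in WT cells. Hspa1a with Hsp90aa1 had 0.25 in KO and 0.35 in WT cells, and Hspa1a with Dnajb1 had 0.22 and 0.37. The median over the 15 inducible pairs was 0.091 in KO and 0.13 in WT cells, over the 6 constitutive pairs 0.074 and 0.068, and over the 24 mixed pairs 0.042 and 0.073. Hspa1a with Dnaja1 stood at -0.032 in KO and 0.078 in WT cells, too close to 0 in sparse counts to be a finding.

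**Figure D3:**
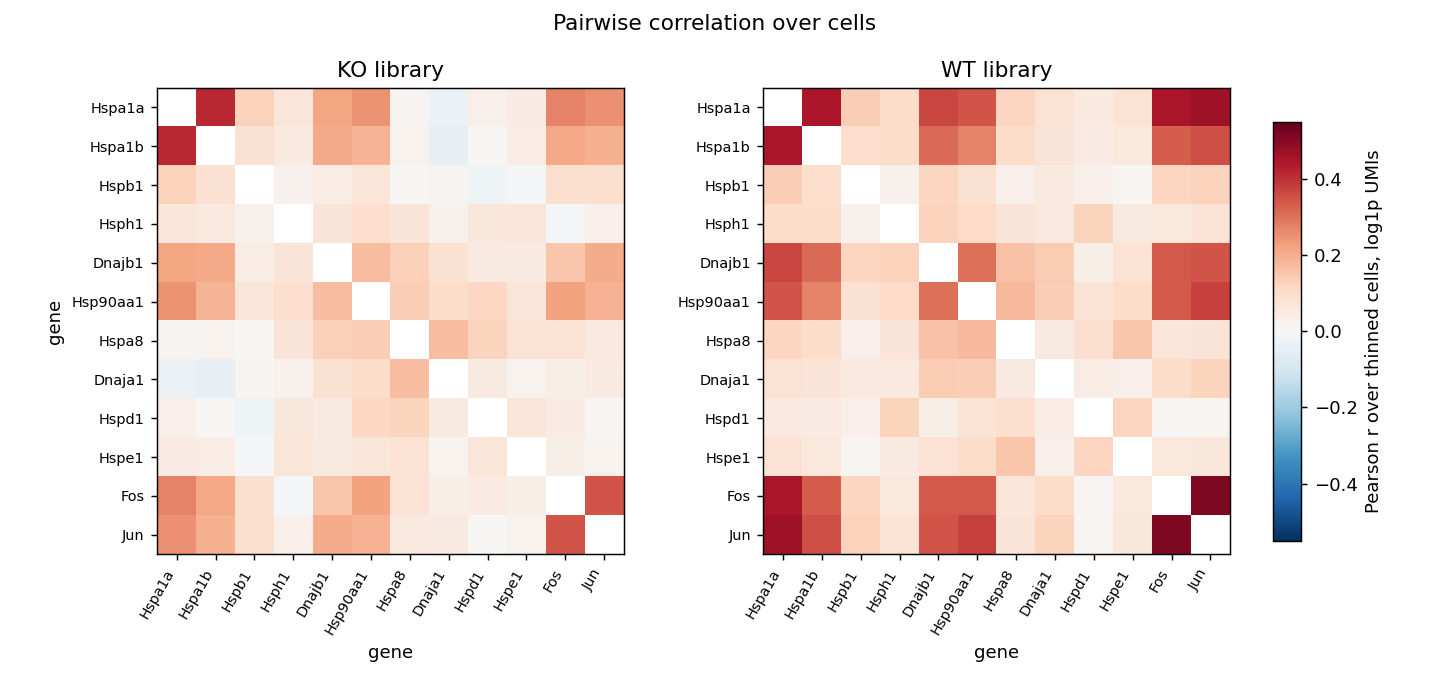
Pearson r over thinned cells (log1p UMIs) between each pair of the 10 members, Fos and Jun, for the KO library (left) and the WT library (right); red is positive and the diagonal is blank. Darker cells join Hspa1a with Hspa1b (0.41 in KO and 0.44 in WT cells) and Fos with Jun (0.34 and 0.51). In the WT library they also join Hspa1a, Hspa1b, Dnajb1 and Hsp90aa1 with Fos and Jun. These are paler in the KO library, where Dnajb1 with Fos (0.15) is no darker than Hspa8 with Dnaja1 (0.17). Hspa8, Dnaja1, Hspd1 and Hspe1 stay pale, at 0.18 or less with any other member.

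Outside the members, the 10 genes most like the inducible sum, ranked by the lower r of the libraries, were Fos, Jun, Klf2, Hsp90ab1, Klf6, Gm26802, Fosb, Zeb2, Cited4 and Malat1. Fos had r of 0.31 in KO and 0.51 in WT cells, and Jun 0.30 and 0.54. Klf2, a transcription factor of resting and recirculating lymphocytes, had 0.26 and 0.37, and Hsp90ab1, the constitutive cytosolic HSP90, 0.24 and 0.30. The lowest value among the 10 was 0.14 in KO cells, for Malat1, and 0.16 in WT cells, for Zeb2, and 0.196% of 8145 genes reached 0.1 in both libraries. Other immediate early genes had negative r with the inducible sum: Nr4a1, an orphan nuclear receptor gene, -0.16 in KO and -0.12 in WT cells, and Fosl2, another AP-1 subunit gene, -0.19 in both. Of the 20 measured immediate early genes, 7 had r of at least 0.1 in both libraries and 5 were below 0 in both.

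The immediate early list as a whole did not share the direction of Fos. Of its 20 measured genes, 11 were higher in the KO library by 1.5-fold or more (5.46% of all genes tested) and 2, Fos and Fosb, lower by as much (2.5%), and the median of the list was 0.76 on the log2 scale. Nr4a1 had 1043 CPM in KO cells against 222 CPM in WT cells, for a log2 ratio of 2.23 (2.18 to 2.28). Btg2, an antiproliferative gene, had 1245 CPM in KO cells against 460 CPM in WT cells, or 1.44 (1.40 to 1.48). Fosb, named for its r, had 133 CPM in KO cells against 214 CPM in WT cells, or -0.68 (-0.77 to -0.61). Hspa1a, Hspa1b and Hspb1 were thus lower in the same library as Fos and Fosb, a library in which Nr4a1 and Btg2 were higher.

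Hspa1a varied widely over clusters of cells. Clusters were drawn without the members, the other chaperone lists and the immediate early list. Genes that go with the inducible sum, such as Gm26802 and Zeb2, were not left out, so the clusters may not be independent of the members. Hspa1a, Hspa1b and Fos were among the 10 leading genes of cluster 0 (579 KO and 736 WT cells, led by Gm26802). Hspa1a was among those of cluster 3 (241 KO and 690 WT cells, led by Cx3cr1, Gpx8 and S1pr5). In the KO library Hspa1a was highest in cluster 3, at 1443 CPM, then in cluster 0, at 801 CPM, and lowest in cluster 4 (led by Gadd45b, Csrnp1 and Nfkbid), at 74.9 CPM. In the WT library it was highest in cluster 0, at 1969 CPM, then in cluster 3, at 1767 CPM, and lowest in cluster 4, at 153 CPM. Highest over lowest was 19.3-fold in the KO and 12.8-fold in the WT library. Of the 9 neighbours in the KO order, 4 had overlapping counting intervals, and 1 of 9 in the WT order, clusters 2 and 4.

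The inducible sum spanned 3.24-fold over KO clusters and 3.75-fold over WT clusters. By member, Dnajb1 spanned 2.83-fold in the KO and 3.10-fold in the WT library and Hsp90aa1 1.84-fold and 1.91-fold, while the constitutive Dnaja1 spanned 2.90-fold and 2.58-fold and Hspd1 2.95-fold and 2.68-fold. Hspa1b spanned 14.1-fold in the KO and 16.0-fold in the WT library, Hsph1 3.20-fold and 2.34-fold, Hspa8 1.68-fold and 1.36-fold, and Hspe1 2.06-fold and 2.14-fold. Hspb1 was too sparse for a span to be read. The spread over clusters thus set Hspa1a and Hspa1b apart from the constitutive members in both libraries. It did not separate Dnajb1, Hsp90aa1 and Hsph1 from each constitutive member in both.

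The constitutive sum, in which Hspa8 weighs most, ran between 2356 and 3821 CPM over the 10 clusters of the KO library, or 1.62-fold, and between 2602 and 3548 CPM in the WT library, or 1.36-fold. Both libraries had it highest in cluster 8, led by granzymes and the proliferation genes Hist1h2ap and Birc5. Hspd1 stood at 274 CPM in KO and 252 CPM in WT cells of that cluster, against 121 and 155 CPM over all kept cells, and was lowest in cluster 5 (led by Ccr7, Bnip3 and Ndrg1), at 92.7 and 94.1 CPM. Dnaja1 was highest in cluster 4, at 820 CPM in KO and 624 CPM in WT cells, the cluster with the least Hspa1a. Hspa1a per Hspa8, a ratio within the same cells, ran between 0.0303 and 0.713 over KO clusters and between 0.0636 and 0.956 over WT clusters.

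**Figure D4:**
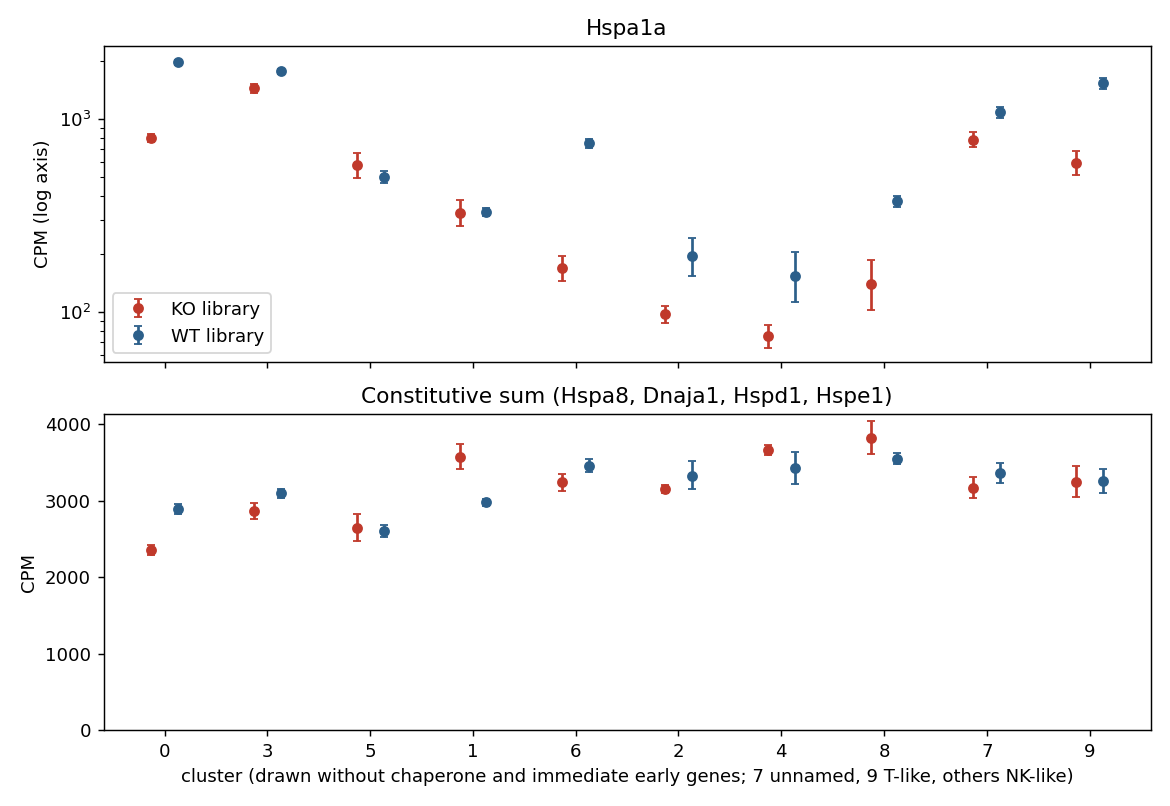
Level of Hspa1a (top, log axis) and of the constitutive sum (bottom, linear axis) in CPM within each of 10 clusters, for the KO library (red) and the WT library (blue), with exact 95% Poisson intervals. Hspa1a spans 74.9 to 1443 CPM over KO clusters and 153 to 1969 CPM over WT clusters, while the constitutive sum stays between 2356 and 3821 CPM in the KO and 2602 and 3548 CPM in the WT library.

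The libraries held these states in unequal numbers. Cluster 4 had 800 KO and 76 WT cells, cluster 2 (led by Ccr7, Ier5l and Dhrs3) 885 and 77, cluster 1 (led by Rgs16, Itgb2 and Ptger4) 123 and 989, and cluster 3 had 241 and 690. Clusters 2 and 4, the 2 lowest for Hspa1a in each library, thus held most KO cells and few WT cells. With 1 library per genotype, a cluster made mostly of 1 library may be that library rather than a state. When KO clusters were weighted to the WT make-up, the log2 ratio was -0.27 for the inducible sum, -0.70 for Hspa1a, -0.38 for Hspa1b, -1.44 for Hspb1 and 0.28 for Dnaja1.

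Within clusters, Hspa1a was lower in the KO library in 9 of 10, and the counting interval lay below 0 in 8. The log2 ratio was -1.30 in cluster 0 (-1.38 to -1.22), -0.29 in cluster 3 (-0.38 to -0.21) and -2.14 in cluster 6 (-2.38 to -1.93), which was led by Spp1, Lag3 and Pxdc1. It was -0.0079 (-0.24 to 0.22) in cluster 1 and 0.21 (-0.031 to 0.44) in cluster 5. Outside the NK-like class it was -1.37 (-1.61 to -1.15) in the T-like and -0.47 (-0.64 to -0.31) in the unnamed cluster. Dnaja1 was higher in the KO library in 9 of 10 clusters, 5 of them with an interval above 0, and its ratio was -0.13 (-0.26 to 0.0089) in cluster 0. Hspa8 ranged from -0.32 in cluster 0 to 0.28 in cluster 1.

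Hspb1 was too sparse to follow by cluster. In 6 of 10 clusters 1 library had 3 or fewer Hspb1 UMIs, and no ratio is given there. In cluster 0 it had 22 UMIs (10.5 CPM) in KO cells against 171 UMIs (54.9 CPM) in WT cells, for a log2 ratio of -2.29 (-3.11 to -1.75). In cluster 3 it had 20 UMIs (20.6 CPM) in KO cells against 123 UMIs (37.0 CPM) in WT cells, for a log2 ratio of -0.81 (-1.60 to -0.15). As pooled sums, the erythroid markers were high in WT cells of cluster 0 and the T-like cluster. They had 323 CPM in KO and 3885 CPM in WT cells of cluster 0, and 340 and 4607 CPM in the T-like cluster. In NK-like cells outside cluster 0 they had 292 and 131 CPM. A few cells can carry such a sum. Over both libraries, the mean share of cells with a UMI of a marker was 13.8% in cluster 0 and 15.6% in the T-like cluster. It ran from 9.75% in cluster 1 to 25.5% in cluster 8. In those NK-like cells outside cluster 0 the log2 ratio was -1.50 (-1.57 to -1.44) for Hspa1a, -1.13 (-1.31 to -0.99) for Hspa1b and -1.68 (-2.33 to -1.43) for Hspb1. The part of these markers in the levels over all cells was not tested.

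**Figure D5:**
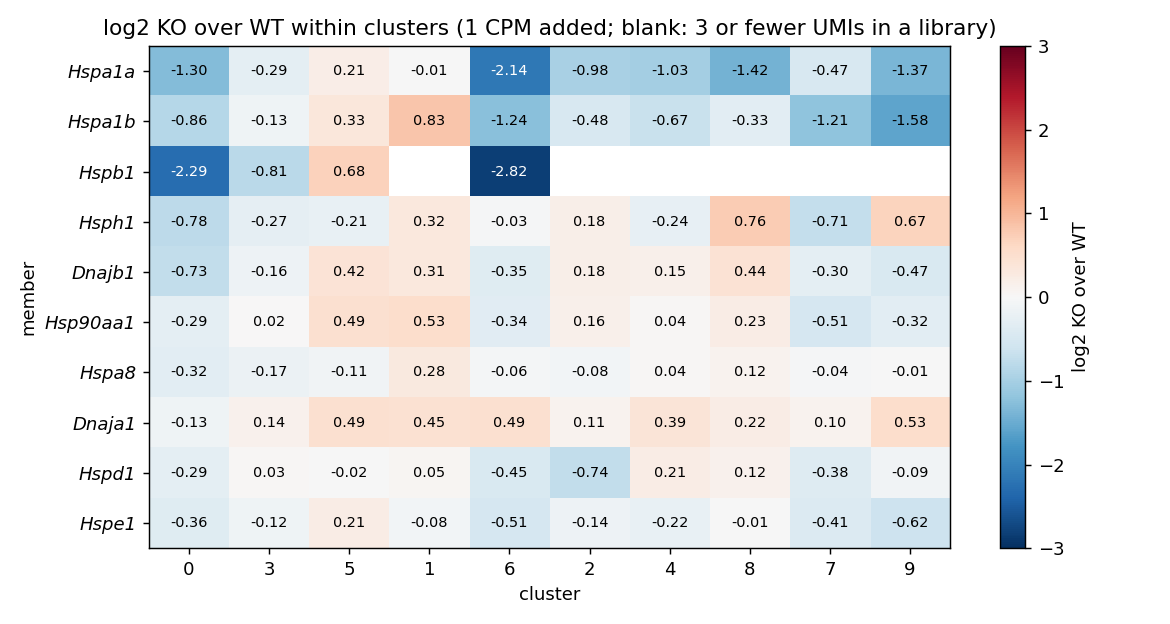
Log2 ratio of KO over WT for each member (rows) within each cluster (columns) after 1 CPM was added to each level; blue is lower and red higher in the KO library, and pairs with 3 or fewer UMIs in a library are blank. The Hspa1a row is below 0 in 9 of 10 clusters, between -2.14 and 0.21, and the Dnaja1 row above 0 in 9 of 10, between -0.13 and 0.53, while Hspa8 stays between -0.32 and 0.28.

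Other chaperone families were counted at the same 1.5-fold, which 2.5% of all genes tested passed lower and 5.46% higher in the KO library, so that counts of 0 in short lists are near that background. In all, 0 of 2 measured heat shock factors, 0 of 11 Hsp90 family genes and co-chaperones, 0 of 12 other HSP70, HSP110 and exchange factor genes, 0 of 12 other J proteins, 0 of 7 subunits of the CCT chaperonin, 0 of 10 mitochondrial chaperones and proteases, and 0 of 1 small heat shock proteins outside the members (Hspb11) reached that size in either direction. Hsf1 itself had 15.3 CPM in KO cells against 13.9 CPM in WT cells, for a log2 ratio of 0.13 (-0.13 to 0.41). Hsp90ab1 had 1011 CPM in KO cells against 1243 CPM in WT cells, or -0.30 (-0.33 to -0.27). Bag3, a stress-induced HSP70 exchange factor, had 5.07 CPM in KO cells against 6.99 CPM in WT cells, or -0.40 (-0.91 to -0.031). Bag2, another exchange factor and under the UMI minimum of that count, had 23 UMIs in KO cells against 82 in WT cells, or -0.93 (-2.01 to -0.59). All 7 measured CCT subunits were below 0, as were 3555 of the 8155 genes tested. The median of the subunits was -0.28, and Cct5 was lowest at -0.35 (-0.42 to -0.28). In the list of 12 other J proteins, which does not hold Dnajb9, Dnajb2 had the largest ratio, 0.57 (0.36 to 0.84), at 22.3 CPM in KO cells against 14.7 CPM in WT cells.

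The endoplasmic reticulum list as a whole had no common direction, with 10 of 18 measured genes below 0, beside 3555 of the 8155 genes tested, and a median of -0.039. Of these 18 genes, of its chaperones and the unfolded protein response, 2 were higher in the KO library by 1.5-fold or more and 0 lower. They were Dnajb9, a J protein of that compartment, with 78.2 CPM in KO cells against 48.2 CPM in WT cells, or 0.69 (0.57 to 0.83), and Herpud1, a factor of its protein degradation pathway, with 167 and 106 CPM, or 0.65 (0.57 to 0.74). Atf4 was also higher, by less than 1.5-fold, at 0.46 (0.40 to 0.52), as was Xbp1 at 0.40 (0.29 to 0.53). The 4 largest absolute ratios of the list were thus all higher in the KO library, and its lowest ratio was -0.28. Of 8 measured oxidative stress genes 2 were higher and 2 lower by as much, beside 5.46% and 2.5% of all genes tested. The metallothionein genes Mt1 and Mt2 were lower, with 43.6 CPM in KO cells against 108 CPM in WT cells for Mt1, or -1.29 (-1.44 to -1.17), and 19.4 and 49.0 CPM for Mt2, or -1.30 (-1.54 to -1.14). Sqstm1, an autophagy receptor gene, was higher, with 427 and 257 CPM, or 0.73 (0.68 to 0.79).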

How the data were processed

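The deposited tables hold whole-number UMI counts per gene and cell barcode, not normalized, from 10x Chromium 3′ libraries of sorted cells. The submitters' processing notes name Cell Ranger 2.0.2, Seurat and mm10 without saying what each did. For the gene annotation, and for any removal of doublets before deposit, the method was not given in the sources used here. The members, gene lists and settings were chosen with earlier results of these data known.

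UMIs of kept cells were summed per library and converted to CPM. Intervals are exact Poisson for levels, exact conditional binomial without the added CPM for ratios, and Clopper-Pearson for shares (scipy 1.17.1). No test was possible between 2 single libraries, so a difference of 1.5-fold was counted among genes with at least 200 UMIs. Cells of both libraries were clustered jointly (scanpy 1.11.5, leidenalg 0.10.2) on UMIs per 10000 after log1p, from 2000 variable genes, 30 components, 15 neighbours and resolution 0.8, with members, other chaperone lists and immediate early genes left out of the variable genes. Class names came from marker lists and leading genes. No doublet caller was run, doublets were kept, and a setting left out the 3% of cells with the most UMIs. Thinning drew 2500 UMIs per cell with a fixed seed. Named genes were the 10 members, Fos, Jun, the 4 or fewer genes of a list that had 100 or more UMIs and the largest absolute ratios, and the 10 genes most like the inducible sum. The summing and its intervals were tested on simulated counts. Gene positions come from GENCODE M21 and promoters from the RefSeq table.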

Additional observations from a re-analysis of the deposited data

Results flagged for a closer look

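For 5 members the ratio between the libraries pointed in opposite directions in different clusters, with counting intervals on opposite sides of 0. The difference between clusters was not tested. The share of all genes that behave so was not taken, so this count is not a result about the members. For Hspa1b and Hsph1 the ratio passed 1.5-fold in both directions. Hspa1b was higher in KO than in WT cells of cluster 1, with a log2 ratio of 0.83 (counting interval 0.32 to 1.35) from 39 KO UMIs. It was lower in KO cells of cluster 0 at -0.86, cluster 6 at -1.24, the unnamed cluster 7 at -1.21 and the T-like cluster 9 at -1.58. Hsph1 was higher in KO cells of cluster 8 at 0.76 (0.098 to 1.40), a cluster with 26 KO and 155 WT cells, and lower in KO cells of cluster 0 at -0.78 (-1.25 to -0.36). The other 3 stayed under 1.5-fold in at least 1 direction. Dnajb1 was 0.44 (0.078 to 0.78) in cluster 8 and -0.73 (-0.86 to -0.61) in cluster 0, Hsp90aa1 was 0.53 (0.38 to 0.67) in cluster 1 and -0.51 (-0.69 to -0.33) in cluster 7, and Hspa8 was 0.28 (0.20 to 0.36) in cluster 1 and -0.32 (-0.38 to -0.26) in cluster 0.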

How the results depend on the processing

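Hspa1a and Hspb1 stayed past 1.5-fold lower in the KO library under the 12 other settings tried, at -1.47 to -0.70 and -2.09 to -1.13 on the log2 scale. Hspa1b stayed so in 11, at -1.22 to -0.38, and lost it when KO clusters were weighted to the WT make-up. The sign of Hspa8, Hsp90aa1 and Hsph1 changed under at least 1 setting. Median of ratios scaling shifted the KO scale by -0.046 (log2), and Hspb1 and Hsph1 by slightly less because of the added CPM, so the sign of a smaller value has no weight. The count of members past 1.5-fold higher was 1 in NK-like clusters only, without cluster 0 and with no UMI minimum (where 3.07% of genes were lower and 5.49% higher), and 0 under the 10 remaining settings. The inducible sum was -0.68 under median of ratios scaling, -0.67 without mitochondrial and ribosomal protein UMIs, -0.66 as a mean over cells, -0.68 thinned, and -0.68 without the 1% of cells with the most member UMIs. It was -0.27 under the WT cluster make-up, -0.35 with the WT shares of the Fos plus Jun bins (over thinned cells) and -0.55 without cluster 0, the last 2 settings chosen after seeing the data. The constitutive sum was -0.027 and -0.023 under the 2 scalings, 0.042 as a mean over cells, 0.059 thinned, 0.093 with the bin shares and 0.066 without cluster 0. Spearman rho of the inducible sum in KO cells was 0.36 unthinned, 0.25 with Fos alone, 0.24 with Jun alone and 0.24 without Hsp90aa1. In WT cells it was 0.61 unthinned, 0.50 thinned to 1500 UMIs, 0.46 with Fos alone, 0.52 with Jun alone and 0.54 without Hsp90aa1. The cause of these shifts was not tested. No paired analysis was possible because there was 1 library per genotype. Depth limits Hspb1, with 3 or fewer UMIs in a library in 6 of 10 clusters, against 0 of 10 for each of the other members.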
